A study of Mus musculus with 12 samples.

Results

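The genes described here are 10 members of a small network of paired transcription factors and 2 of their best known targets. They are Mlxipl, which encodes the carbohydrate response factor ChREBP, its relative Mlxip (MondoA), their partner Mlx, the targets Txnip and Arrdc4, and Myc, Max, Mxd1, Mxi1 and Mnt. They were taken by gene symbol from the deposited table of read counts, where each symbol matched 1 of 39179 rows. The RNA came from RAW 264.7, a macrophage cell line from a BALB/c mouse. Cells nucleofected with a short hairpin RNA against luciferase (sh-Luc, the control) or against PHLPP1, a phosphatase that acts on AKT and other kinases, were selected with puromycin into 1 stable line per hairpin. Both lines were studied untreated and after oxidised low-density lipoprotein (OxLDL), which macrophages internalise through scavenger receptors, at 100 µg/ml for 24 h. The 4 groups held 3 libraries each, numbered 1, 2 and 3 for cultures at passages 9, 10 and 11, so p-values measure the spread between cultures of 1 line and not between independently made lines. The study's title concerns PHLPP1, AMPK and ChREBP in lipid accumulation.

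ChREBP and MondoA sense sugar phosphates, bind DNA as pairs with MLX at carbohydrate response elements, and raise Txnip and Arrdc4, which encode alpha-arrestins that restrain glucose uptake. MAX is the common partner of a second branch. MYC with MAX turns on genes of ribosome building, polyamine synthesis and growth, while MXD1, MXI1 and MNT with MAX bring SIN3 repressor complexes to the same E-box sites. MLX also pairs with MXD1 and MNT, which joins the branches.

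The transcription factors of this network bind E-box letters, and 4 upstream stretches are shown because they hold such letters in front of members whose levels are described below. Each is the 250 bases before the RefSeq start, 5′ to 3′ on the gene's strand in GRCm38.p6, with the matched letters in capitals. Txnip lies at chr3:96557707-96557956 on the plus strand, Arrdc4 at chr7:68749239-68749488 on the minus strand, Mlx at chr11:101087040-101087289 on the plus strand and Mnt at chr11:74830674-74830923 on the plus strand.
Txnip: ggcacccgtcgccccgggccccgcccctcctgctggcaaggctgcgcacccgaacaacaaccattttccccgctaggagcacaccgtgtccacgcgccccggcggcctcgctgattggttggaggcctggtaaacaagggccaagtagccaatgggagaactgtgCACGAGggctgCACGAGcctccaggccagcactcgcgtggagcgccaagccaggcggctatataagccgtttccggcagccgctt
Arrdc4: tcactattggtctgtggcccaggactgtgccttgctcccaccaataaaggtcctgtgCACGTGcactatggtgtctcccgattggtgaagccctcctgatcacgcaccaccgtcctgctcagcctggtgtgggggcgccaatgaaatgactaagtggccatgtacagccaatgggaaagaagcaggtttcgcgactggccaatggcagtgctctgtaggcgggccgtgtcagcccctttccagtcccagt
Mlx: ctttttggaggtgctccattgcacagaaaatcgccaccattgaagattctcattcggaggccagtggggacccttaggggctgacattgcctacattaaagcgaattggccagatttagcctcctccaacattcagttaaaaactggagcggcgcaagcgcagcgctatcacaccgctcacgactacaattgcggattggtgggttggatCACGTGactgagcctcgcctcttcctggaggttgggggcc
Mnt: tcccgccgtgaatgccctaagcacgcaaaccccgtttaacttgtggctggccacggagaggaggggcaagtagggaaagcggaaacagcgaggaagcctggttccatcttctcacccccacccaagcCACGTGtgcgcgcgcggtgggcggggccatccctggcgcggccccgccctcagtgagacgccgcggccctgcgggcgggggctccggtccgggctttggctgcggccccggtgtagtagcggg
The RefSeq table held promoter windows of 300 bases (250 before and 50 after the start) for 9 of the 10 members. CACGTG, which reads the same on both strands, was present in 5 of the 12 windows of members. These were 1 window each of Mlxipl, Arrdc4, Mlx, Mnt and Max. Of all 32851 windows of that length, 7.15% held it. Txnip had no CACGTG, but held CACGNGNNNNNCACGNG, a pair of E-box-like sites spaced by 5 bases as in a carbohydrate response element, which 0.0487% of all windows held on either strand. The match in Txnip began 85 bases before the start, and those in Arrdc4, Mlx and Mnt began 193, 40 and 123 bases before it. These are letter matches only.

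Libraries held 16020186 to 27422114 counts. Phlpp1, the targeted gene, stood at 12.4, 14.4 and 13.3 CPM in untreated sh-Luc while untreated sh-PHLPP1 had 17.3, 14.6 and 14.0 CPM (log2 fold change 0.19 ± 0.13, SE, adjusted p = 0.279), so sh-PHLPP1 is used here as the label of the line. With OxLDL, sh-PHLPP1 was lower, at 8.65, 8.35 and 7.40 CPM against 11.4, 13.5 and 11.4 CPM. CPM are counts scaled to a common library total with TMM (trimmed mean) factors. Correlations between replicates across genes were 0.966 to 0.995. Replicate 1 of untreated sh-PHLPP1 (0.966 and 0.967 with the others of its group) and replicate 2 of untreated sh-Luc (0.983 and 0.984) stood apart and were also left out together. Replicate 3 of sh-PHLPP1 with OxLDL (0.984 and 0.987, against 0.993 for the other pair) was left out only on its own. The 10 macrophage markers (Cd68, Csf1r and Lyz2 among them) were all detected, but Mrc1 only at 0.148 to 0.676 CPM. Their summed levels were 16330 to 20397 CPM in sh-Luc libraries and 11015 to 12923 CPM in untreated sh-PHLPP1. In sh-PHLPP1 after OxLDL they were 15989 to 18520 CPM. Lyz2 alone stood at 6916 to 14084 CPM over the 12 libraries, so the sum rests largely on that gene. Markers of granulocytes, fibroblasts, epithelium, T cells and B cells summed to at most 5.55 CPM each. In bulk RNA, fewer cells expressing a gene and less RNA per cell cannot be told apart.

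Mlxipl, the gene of ChREBP, was almost absent from these cells. It had 2 counts over all 12 libraries, 1 in replicate 2 of untreated sh-PHLPP1 and 1 in replicate 1 of sh-PHLPP1 with OxLDL. In the other 10 libraries it was at 0, where up to 3 counts, or 0.110 to 0.222 CPM, could have gone unseen. Mlxipl did not pass the filter on low counts and was not tested, so 9 of 10 members were. That limit covers counting error only.

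Per kb of exon, Txnip was the most abundant member, with a mean of 123 CPM per kb over 12 libraries. Max (30.3 CPM per kb) and Mlx (29.7 CPM per kb) followed, then Mnt (11.0), Mxi1 (9.57), Myc (5.31), Mlxip (4.41), Mxd1 (2.49) and Arrdc4 (1.25 CPM per kb). The ranges over libraries of neighbours in this order overlapped, except that Txnip (69.9 to 199.6 CPM per kb) stood above Max (20.9 to 37.8 CPM per kb) and Mlx (17.8 to 42.0) above Mnt (5.41 to 15.1). This order of means over all libraries did not hold within each group. Myc was below Mlxip in untreated sh-Luc (1.97 against 5.43 CPM per kb), sh-Luc with OxLDL (3.93 against 4.74) and untreated sh-PHLPP1 (0.461 against 4.33). In sh-PHLPP1 with OxLDL, Myc (14.9 CPM per kb) was above Mxi1 (10.5), Mnt (6.71), Mxd1 (6.03) and Mlxip (3.13). Relative to Mlxip, Mlx was present at 4.10 to 5.29 times the level per kb in untreated sh-Luc and at 11.6 to 17.0 times in sh-PHLPP1 after OxLDL.

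**Figure D1:**
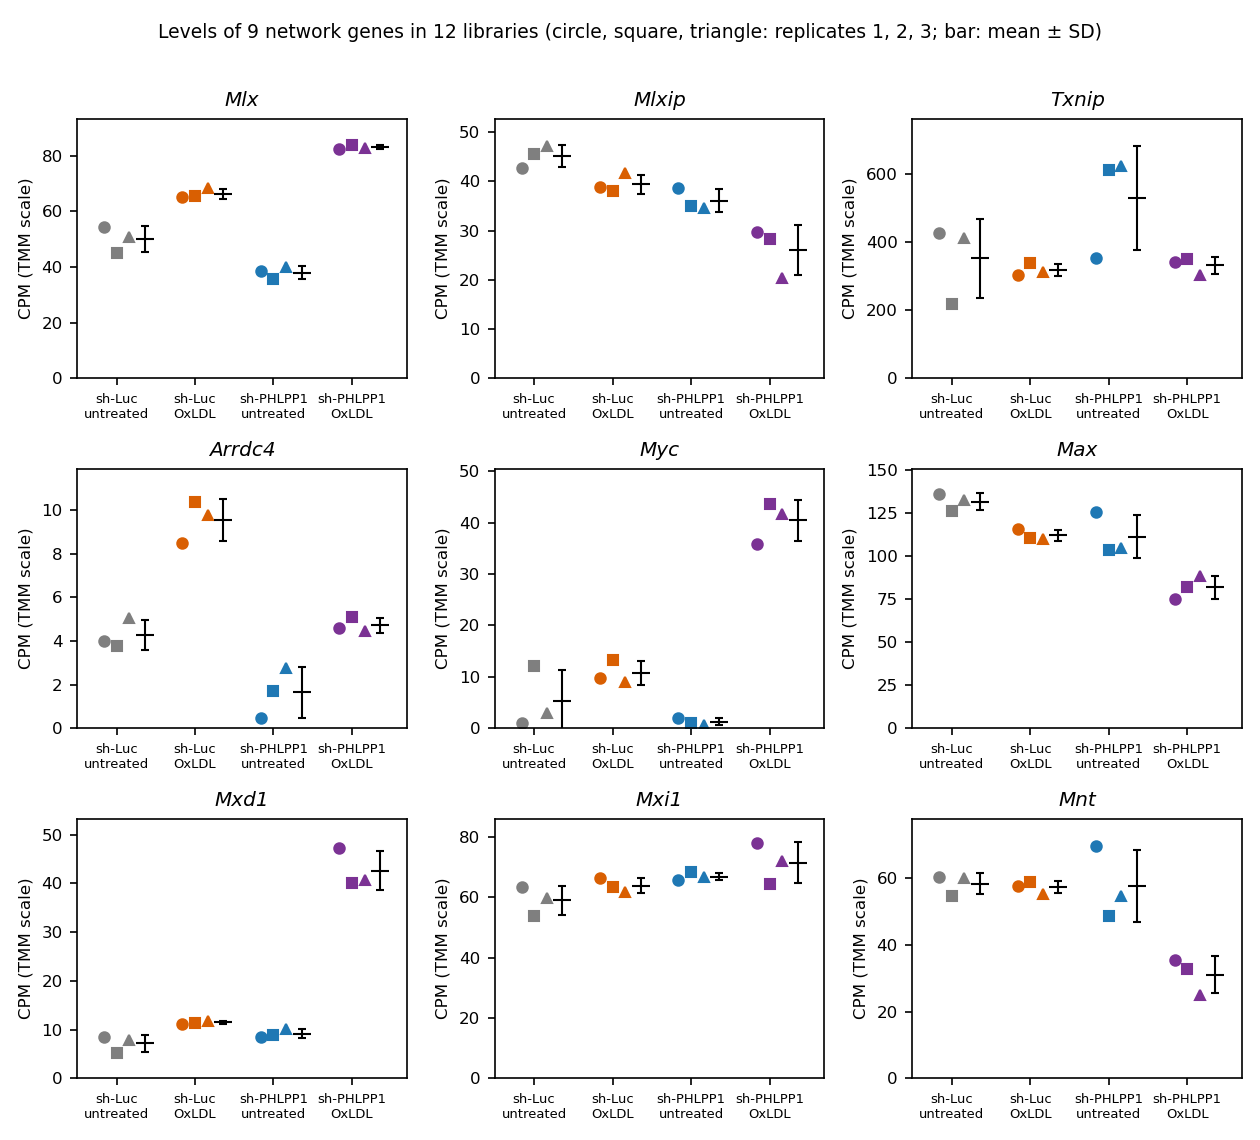
Level of each tested member in each library, in CPM on the TMM scale (linear axes from 0), by group. Symbols are replicates 1, 2 and 3 and the black bars are mean ± SD (n = 3, clipped at 0 for Myc). Myc and Mxd1 in sh-PHLPP1 after OxLDL (35.9 to 43.7 and 40.0 to 47.2 CPM) stood above every other library.

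OxLDL changed 2 members by the test in sh-Luc cells, and 8 in sh-PHLPP1 cells. In sh-Luc, Mlx and Mxd1 rose and no member fell, so 2 of the 9 tested members were called where 9.47% of all 13121 genes were (6.38% higher and 3.09% lower). This count moved with the libraries used. It was 0 without replicate 3 of untreated sh-Luc, without any 1 of the sh-Luc OxLDL libraries or with library size alone, 4 in a fit of the 6 sh-Luc libraries alone (23.4% of all genes called), and 6 without both untreated libraries that stood apart (26.5%). In the sh-PHLPP1 line Myc, Mxd1, Mlx and Arrdc4 rose while Mnt, Txnip, Mlxip and Max fell, 8 of 9 where 54.6% of all genes were called (26.2% higher and 28.4% lower). With library size alone, 1572 genes were higher and 6381 lower there in place of 3441 and 3728, and 4 members rose and 5 fell. Leaving out 1 library gave 7 or 8 members. Calls rest on edgeR's quasi-likelihood test with an adjusted p under 0.05. The members' median log2 fold change was 0.12 in sh-Luc and 0.10 in sh-PHLPP1, beside -0.0036 and -0.03 over all genes. Values of untreated and OxLDL libraries did not overlap for 5 members in sh-Luc and 8 in sh-PHLPP1, against 43.2% and 59.9% of all genes.

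**Figure D2:**
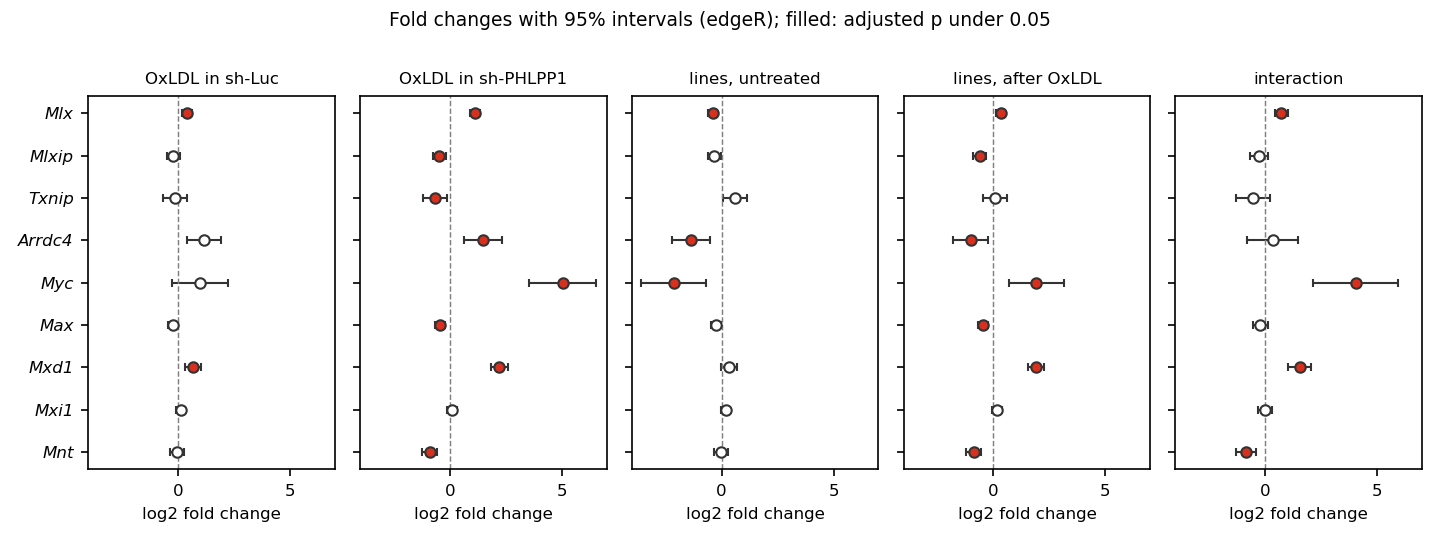
Log2 fold change (horizontal axis) of each tested member in the 4 comparisons of groups and the interaction, with 95% intervals from the edgeR fit. Filled points passed an adjusted p of 0.05. Mxi1 was open in every panel, and Myc had the widest intervals.

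Myc, the growth-promoting partner of MAX, showed the widest range. In untreated sh-Luc it stood at 1.11, 12.1 and 2.87 CPM and after OxLDL at 9.70, 13.3 and 9.03 CPM. These groups overlapped, because replicate 2 of the untreated libraries was as high as those with OxLDL, and the difference was not called (0.99 ± 0.58, adjusted p = 0.306). Without that library the value was 2.43 and was called. In the line labelled sh-PHLPP1, Myc was at 2.02, 1.03 and 0.713 CPM untreated and at 35.9, 43.7 and 41.8 CPM after OxLDL. Every OxLDL library was far above every untreated one, and Myc rose 32.8-fold, with means ± SD of 1.25 ± 0.679 and 40.4 ± 4.05 CPM (n = 3). Its log2 fold change was 5.03 ± 0.68 (SE, adjusted p = 7.56e-05). The interaction, the log2 response to OxLDL in sh-PHLPP1 less the response in sh-Luc, was 4.04 ± 0.88 (adjusted p = 0.00711), and was 2.60 and still called without replicate 2 of untreated sh-Luc.

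Myc was not the main MYC family transcript. Mycn, which encodes N-MYC, another partner of MAX, stood at 1035, 825 and 1060 CPM in untreated sh-Luc and at 718, 767 and 705 CPM after OxLDL. In the sh-PHLPP1 line Mycn was at 956, 658 and 720 CPM untreated and at 195, 218 and 213 CPM with OxLDL. The last 3 libraries lay below all others, and Mycn fell with OxLDL in that line (-1.90 ± 0.15, adjusted p = 1.11e-06; interaction -1.48 ± 0.21, adjusted p = 0.000535). Per kb of exon, Myc made up 0.130, 1.74 and 0.327% of Myc plus Mycn in untreated sh-Luc and 0.255, 0.190 and 0.120% in untreated sh-PHLPP1. With OxLDL its share was 1.61, 2.06 and 1.53% in sh-Luc and 18.3, 19.5 and 19.2% in sh-PHLPP1. The sum of both was 226 ± 10.7 CPM per kb in sh-Luc with OxLDL and 78.2 ± 5.22 CPM per kb in sh-PHLPP1 with OxLDL (SD, n = 3). Mycn exceeded Myc in each of the 12 libraries.

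**Figure D3:**
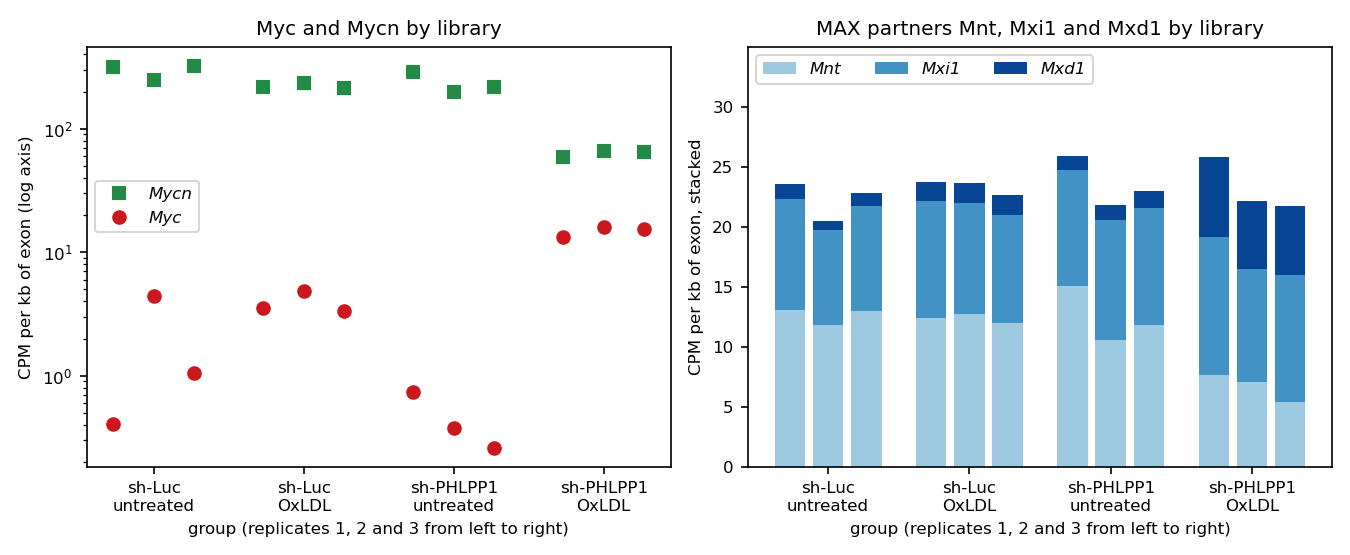
Left, Myc and Mycn in each library in CPM per kb of exon, on a log axis. Right, stacked levels of Mnt, Mxi1 and Mxd1 in CPM per kb of exon, on a linear axis from 0. Libraries are ordered by group. Mycn lay above Myc in each library, and Mxd1 made up 25.5 to 26.5% of the stack in sh-PHLPP1 with OxLDL.

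Among the MAX partners that oppose MYC, Mxd1 rose, Mnt fell and Mxi1 was not called. Mxd1, which encodes a repressor linked to differentiation, was at 8.51, 5.19 and 7.92 CPM in untreated sh-Luc and at 11.2, 11.4 and 11.8 CPM with OxLDL. These groups did not overlap (0.67 ± 0.17, adjusted p = 0.0260). In sh-PHLPP1, Mxd1 went from 8.48, 8.86 and 10.1 CPM to 47.2, 40.0 and 40.7 CPM, again without overlap. It rose 4.65-fold there (2.22 ± 0.17, adjusted p = 7.05e-07), and the interaction was 1.55 ± 0.23 (adjusted p = 0.000862). The smaller rise in sh-Luc lost its call without replicate 3 of the untreated libraries (0.75) or without any 1 of the sh-Luc OxLDL libraries (0.66 to 0.70).

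Mnt, the broadly expressed MYC antagonist, was at 60.3, 54.7 and 59.9 CPM in untreated sh-Luc and at 57.5, 58.8 and 55.2 CPM with OxLDL. These values overlapped (-0.03 ± 0.15, adjusted p = 0.929). In sh-PHLPP1, Mnt went from 69.7, 48.7 and 54.6 CPM to 35.5, 32.6 and 25.0 CPM. Each library with OxLDL was below each untreated one, and Mnt fell (-0.89 ± 0.15, adjusted p = 0.000363) with an interaction of -0.86 ± 0.21 (adjusted p = 0.0124). Mxi1, a close relative of Mxd1, lay between 53.8 and 78.1 CPM in all 12 libraries. Its log2 fold changes with OxLDL were 0.12 in sh-Luc (95% interval -0.10 to 0.33) and 0.10 in sh-PHLPP1 (95% interval -0.12 to 0.32).

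The make-up of the summed level of these 3 antagonists per kb differed between groups. Mnt made up 52.3 to 57.8% of that sum in sh-Luc libraries and 24.9 to 31.9% in sh-PHLPP1 with OxLDL. Mxd1 made up 3.59 to 7.35% in sh-Luc libraries and 25.5 to 26.5% in sh-PHLPP1 with OxLDL. Myc relative to the sum was 0.0114 to 0.0286 in untreated sh-PHLPP1 and 0.512 to 0.726 after OxLDL, without overlap with any other group (0.0173 to 0.217 in sh-Luc). This ratio leaves out Mycn, the main MYC family transcript, and Mxd4, another antagonist described below. In sh-PHLPP1, Myc plus Mycn went down with OxLDL, from 237 ± 47.9 to 78.2 ± 5.22 CPM per kb (SD, n = 3). Mxd4 went from 1.84, 5.24 and 5.32 to 0.478, 0.580 and 0.454 CPM per kb there.

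Max and Mlx, the common partners of the 2 branches, differed in direction with OxLDL in sh-PHLPP1, where Max fell and Mlx rose. Max stood at 136, 126 and 132 CPM in untreated sh-Luc and at 116, 110 and 110 CPM with OxLDL, without overlap but without a call (-0.23 ± 0.10, adjusted p = 0.188), while the authors' deposited table lists an adjusted p of 0.0325. In sh-PHLPP1, Max went from 126, 103 and 105 CPM to 75.0, 81.9 and 88.7 CPM. It fell there (-0.44 ± 0.10, adjusted p = 0.00354), and all libraries with OxLDL were below all untreated ones. The interaction was not called (-0.21 ± 0.15, adjusted p = 0.309).

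Mlx was at 54.4, 44.9 and 50.9 CPM in untreated sh-Luc and at 65.2, 65.4 and 68.4 CPM with OxLDL. In sh-PHLPP1 it went from 38.6, 35.5 and 39.8 CPM to 82.6, 84.0 and 82.8 CPM. Neither pair of groups overlapped. Mlx rose in sh-Luc (0.41 ± 0.10, adjusted p = 0.0198) and in sh-PHLPP1 (1.13 ± 0.10, adjusted p = 2.05e-06), with an interaction of 0.72 ± 0.14 (adjusted p = 0.00340). Per kb, Max (35.1 to 37.8 CPM per kb) was above Mlx (22.4 to 27.2) in untreated sh-Luc, while Mlx (41.3 to 42.0 CPM per kb) was above Max (20.9 to 24.6) in sh-PHLPP1 with OxLDL. Scaling by library size alone, which moved the median log2 fold change of all genes to -0.46 for OxLDL in sh-PHLPP1 and to -0.43 for the interaction, gave an interaction for Mlx of 0.35, which was not called. The sh-Luc call was lost without replicate 3 of the untreated libraries (0.42) or any 1 of the sh-Luc OxLDL libraries (0.39 to 0.43). Exons of Mlx (chr11:101087277-101092207) overlap those of Psmc3ip on the other strand by 385 bases, and the strand setting of the counting was not given in the sources used here. Psmc3ip had 3986 counts and Mlx 14580 over 12 libraries.

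Mlxip, the gene of MondoA, was lower with OxLDL in the sh-PHLPP1 line. It was at 42.8, 45.6 and 47.2 CPM in untreated sh-Luc and at 38.8, 37.9 and 41.6 CPM with OxLDL, a difference that was not called (-0.20 ± 0.13, adjusted p = 0.375). In sh-PHLPP1, Mlxip went from 38.7, 34.9 and 34.5 CPM to 29.7, 28.2 and 20.3 CPM and fell (-0.47 ± 0.13, adjusted p = 0.0105). Neither pair of groups overlapped. The fall was not called in a fit of the 6 sh-PHLPP1 libraries alone (-0.47). The interaction was not called (-0.27 ± 0.19, adjusted p = 0.308), but was -0.64 and called with library size alone.

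With OxLDL in sh-PHLPP1, Arrdc4 rose and Txnip fell. In sh-Luc neither of these alpha-arrestin genes was called by the edgeR test used here, though each was called in some alternatives. Arrdc4, which encodes an adaptor that promotes removal of glucose transporters, was at 3.99, 3.78 and 5.06 CPM in untreated sh-Luc and at 8.48, 10.4 and 9.78 CPM with OxLDL. These groups did not overlap, but the difference missed the threshold (1.16 ± 0.35, adjusted p = 0.0611), while the authors' deposited table lists it with an adjusted p of 7.01e-08. In sh-PHLPP1, Arrdc4 went from 0.458, 1.70 and 2.77 CPM to 4.60, 5.09 and 4.44 CPM. It rose there (1.50 ± 0.39, adjusted p = 0.00637), and the interaction was not called (0.34 ± 0.52, adjusted p = 0.662).

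Txnip, which encodes an inhibitor of thioredoxin and of glucose uptake, was at 427, 218 and 412 CPM in untreated sh-Luc and at 303, 338 and 312 CPM with OxLDL. These groups overlapped (-0.15 ± 0.25, adjusted p = 0.746). The value was -0.40 and called without both untreated libraries that stood apart, but 0.020 and not called without replicate 1 of untreated sh-Luc. In sh-PHLPP1, Txnip went from 352, 612 and 623 CPM to 341, 350 and 303 CPM. All OxLDL libraries lay below the untreated ones, although replicate 1 of the untreated libraries exceeded the highest of them only slightly, and Txnip fell (-0.68 ± 0.25, adjusted p = 0.0347). That call was lost without replicate 2 or 3 of the untreated libraries (-0.57 and -0.55) and without any 1 of the OxLDL libraries of that line (-0.72 to -0.62). The interaction was not called (-0.53 ± 0.35, adjusted p = 0.282), but without both untreated libraries that stood apart it was -0.51 and called. Per kb, Txnip exceeded Arrdc4 by 74.7 to 138 times in untreated sh-Luc, 291 to 993 times in untreated sh-PHLPP1, and 41.3 to 46.2 and 88.2 to 95.8 times with OxLDL. The ratio of 993 rests on 10 counts of Arrdc4 in replicate 1 of untreated sh-PHLPP1, a library that stood apart.

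Between untreated lines, 3 of 9 members were lower in sh-PHLPP1 and none was higher, where 27.0% of all genes were called (14.9% higher and 12.2% lower). With library size alone, 2620 genes were higher and 996 lower in place of 1950 and 1599. The members' count was 0 in a fit of the 6 untreated libraries alone (5.81% of all genes called) and 0 without replicate 2 of sh-PHLPP1. It was 1 higher and 5 lower without replicate 1 of sh-PHLPP1 (47.6% of all genes called), and 2 without replicate 3 of sh-PHLPP1 or any 1 of the untreated sh-Luc libraries. The members were Mlx (-0.40 ± 0.10, adjusted p = 0.0120), Arrdc4 (-1.36 ± 0.38, adjusted p = 0.0231) and Myc (-2.13 ± 0.67, adjusted p = 0.0346). Mlx and Arrdc4 did not overlap between the lines, while Myc did: without replicate 2 of untreated sh-Luc its value was -0.70, and without replicate 2 or 3 of untreated sh-PHLPP1 it was -2.003 and -1.852, none of them called. The call of Arrdc4 was lost without replicate 3 of sh-Luc (-1.22) or replicate 2 of sh-PHLPP1 (-1.37). The call of Mlx was lost without replicate 1 of sh-Luc (-0.34) or replicate 2 of sh-PHLPP1 (-0.35). The authors' deposited table lists adjusted p-values of 0.0515 for Arrdc4 and 0.0435 for Mlxip, which was not called here. Txnip had a log2 fold change of 0.59 ± 0.25 (adjusted p = 0.0920), which was 0.81 and called without replicate 1 of sh-PHLPP1. The members' median was -0.24, beside 0.03 for all genes, and 5 members did not overlap, against 36.9% of all genes. Summed macrophage markers were also lower in untreated sh-PHLPP1 than in untreated sh-Luc, and their part in these differences was not tested.

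After OxLDL, 3 members were higher and 4 lower in the sh-PHLPP1 line, where 55.2% of all genes were called (27.6% higher and 27.6% lower). With library size alone, 2180 genes were higher and 5107 lower in place of 3621 and 3619, and 2 members were higher and 4 lower. Mxd1 (1.89 ± 0.17, adjusted p = 4.69e-06), Myc (1.91 ± 0.56, adjusted p = 0.0124) and Mlx (0.33 ± 0.10, adjusted p = 0.0125) were higher. Arrdc4 (-1.02 ± 0.36, adjusted p = 0.0304), Mnt (-0.88 ± 0.15, adjusted p = 0.000450), Mlxip (-0.60 ± 0.13, adjusted p = 0.00262) and Max (-0.45 ± 0.10, adjusted p = 0.00315) were lower. These 7 did not overlap between the lines, against 69.2% of all genes, and the members' median was 0.06 (0.01 for all genes). Mlx was 0.06 and not called when scaled by library size alone and lost its call without replicate 1 of sh-Luc (0.29). The call of Arrdc4 was lost without replicate 2 or 3 of sh-Luc (-0.95 and -1.02) and without any 1 of the sh-PHLPP1 libraries (-1.08 to -0.99). Txnip (0.06 ± 0.25, 95% interval -0.48 to 0.59) and Mxi1 (0.16, 95% interval -0.06 to 0.38) were not called.

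The interaction was called for 4 of 9 members, Mlx, Myc, Mxd1 and Mnt, where 24.6% of all genes were called (11.1% higher and 13.6% lower). With library size alone, 569 genes were higher and 4214 lower in place of 1451 and 1780, and 2 members were higher and 3 lower. The response to OxLDL was higher in sh-PHLPP1 than in sh-Luc for Mlx, Myc and Mxd1, and lower for Mnt. The comparisons of this design share groups, so their values stand side by side and were not counted as separate evidence.

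Of 22 tested MYC-MAX partners and co-factors, 2 rose and 13 fell with OxLDL in sh-PHLPP1, where 26.2% of all genes rose and 28.4% fell. The list's median was -0.35, beside -0.03 over all genes. Mxd4, another MAX partner that opposes MYC, went from 15.6, 44.4 and 45.1 CPM to 4.06, 4.92 and 3.85 CPM (-3.03 ± 0.36, adjusted p = 2.61e-05). Sin3a, the scaffold of the SIN3 repressor, fell from 66.9, 54.1 and 55.8 CPM to 33.6, 31.4 and 23.0 CPM, as did Trrap, a MYC co-activator (-0.88 ± 0.13), and after OxLDL Sin3b, the other SIN3 scaffold, was higher in this line (0.86 ± 0.11). In sh-Luc, 1 of the 22 fell (6 without both untreated libraries that stood apart, and 0 to 4 without 1 library), and the median was -0.20. Between lines, 2 were higher and 4 lower untreated (median -0.12), and 3 higher and 12 lower after OxLDL (-0.35). Of all genes, 9.47% were called in sh-Luc, 27.0% and 55.2% between lines untreated and after OxLDL, and 24.6% for the interaction. The interaction was called higher for 1 and lower for 5 partners (median -0.20), and for 2 and 8 without replicate 1 of untreated sh-PHLPP1. That library also moved the untreated comparison, to 3 higher and 7 lower, while without replicate 2 or 3 of untreated sh-PHLPP1 it was 1 and 1.

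Genes known to be activated by MYC did not move as 1 group. With OxLDL in sh-PHLPP1, where Myc rose and Mycn fell, 6 of 30 rose and 11 fell (median -0.24), where 54.6% of all genes were called (26.2% higher and 28.4% lower). With scaling by library size alone, 2 rose and 20 fell. Odc1, the rate-limiting enzyme of polyamine synthesis, stood at 3061, 4089 and 3090 CPM in untreated sh-Luc and at 4637, 5193 and 5223 CPM with OxLDL. In sh-PHLPP1, Odc1 went from 1134, 1064 and 1010 CPM to 9553, 7998 and 6877 CPM. It rose in both lines, by 0.56 ± 0.16 (adjusted p = 0.0423) and 2.93 ± 0.17 (adjusted p = 6.52e-08), with an interaction of 2.37 ± 0.22 (adjusted p = 2.77e-05). Srm, spermidine synthase of the same pathway, fell in sh-PHLPP1 (-1.27 ± 0.14, adjusted p = 1.17e-05), from 196, 130 and 140 CPM to 63.3, 66.8 and 62.6 CPM. Eif4e, the cap-binding translation factor, rose there (0.77 ± 0.10) and Ptma, prothymosin, fell (-0.99 ± 0.21). Cad, an enzyme of pyrimidine synthesis named after its values were seen, had the lowest fold change of the list (-1.88 ± 0.42).

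Between untreated lines, 20 of these 30 genes were lower in sh-PHLPP1 and none higher (median -0.56), where 12.2% of all genes were lower. Odc1 (-1.67 ± 0.16), Nop16 (-0.77 ± 0.11), Phb (-0.70 ± 0.13) and Ldha (-0.60 ± 0.11) had the smallest p. The count was 9 without replicate 2 and 8 without replicate 3 of untreated sh-PHLPP1, all lower, 13 when scaled by library size alone and 5 in a fit of the 6 untreated libraries alone. Without replicate 1 of untreated sh-PHLPP1 it was 1 higher and 27 lower. In sh-Luc, OxLDL raised 1 and lowered 3 (median -0.30), but 1 and 14 without replicate 1 of untreated sh-PHLPP1, and 0 in all without replicate 2 or 3 of sh-Luc with OxLDL. After OxLDL, 4 were higher and 18 lower between the lines (median -0.41), with Srm (-1.50 ± 0.14) and Ldha (-0.89 ± 0.11) among the lower. The interaction was called for 3 genes in the upper and 1 in the lower direction (median 0.09), and for 11 and 1 without replicate 1 of untreated sh-PHLPP1. All-gene shares called were 9.47% for OxLDL in sh-Luc, 55.2% between lines after OxLDL and 24.6% for the interaction.

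**Figure D4:**
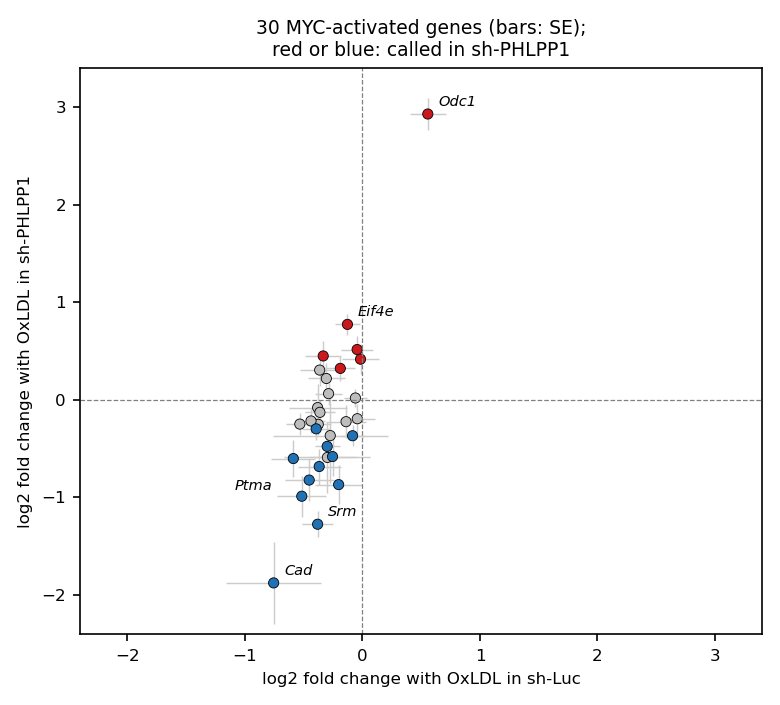
Log2 fold change with OxLDL in sh-Luc (horizontal) and in sh-PHLPP1 (vertical) of 30 genes known to be activated by MYC, with SE bars. Red genes rose and blue genes fell in sh-PHLPP1. Odc1, at 0.56 and 2.93, lies apart from the others.

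Genes known to be repressed by MYC were tested for 7 of 10 members. With OxLDL, Gadd45b (1.44 ± 0.16 in sh-Luc and 5.04 ± 0.18 in sh-PHLPP1) and Gadd45a (1.74 ± 0.27 and 3.36 ± 0.27), which encode stress-induced growth arrest proteins, rose in both lines. Ndrg2, a differentiation gene, fell in both (-1.01 ± 0.11 and -1.91 ± 0.11). Counts higher and lower were 2 and 1 in sh-Luc (2 and 3 without both untreated libraries that stood apart), 2 and 2 in sh-PHLPP1, 3 and 2 between untreated lines, 4 and 2 after OxLDL and 2 and 2 for the interaction. The medians in that order were 0.07, 0.03, 0.13, 0.51 and -0.01, and the shares of all genes called were 9.47, 54.6, 27.0, 55.2 and 24.6%.

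Carbohydrate response targets of ChREBP and MondoA passed the filter for 15 of 25. With OxLDL in sh-PHLPP1, 4 rose and 7 fell (median -0.64), where 26.2% of all genes rose and 28.4% fell. Fasn, the fatty acid synthase, fell there (-2.38 ± 0.31, adjusted p = 5.22e-05), from 488, 191 and 212 CPM to 57.7, 66.4 and 47.4 CPM, and so did Scd2, a desaturase (-1.71 ± 0.32), Acaca, acetyl-CoA carboxylase (-0.81 ± 0.15), and Khk, which phosphorylates fructose (-0.88 ± 0.17). Members of this branch went both ways in the same libraries: Mlx and Arrdc4 rose, while Mlxip and Txnip fell. In sh-Luc, 2 rose and 2 fell (median 0.05), and 4 and 5 without replicate 1 of untreated sh-PHLPP1 (1 to 9 called without 1 library). Slc2a4, an insulin-responsive glucose transporter, rose there (2.41 ± 0.37, adjusted p = 0.00174) at 1.03 to 1.49 CPM after OxLDL. Between lines, 2 were higher and 3 lower untreated (median -0.16, and 3 and 6 without that library), and 1 higher and 7 lower after OxLDL (-0.20, and 0 and 5 without replicate 1 of sh-PHLPP1). The interaction was called for Scd2 (-1.77 ± 0.44) and Fasn (-1.60 ± 0.42), with a median of -0.25. All-gene shares called were 9.47% in sh-Luc, 27.0% and 55.2% between lines untreated and after OxLDL, and 24.6% for the interaction.

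Genes of glucose uptake and phosphorylation, which the alpha-arrestins act on, were called higher for 3 of 10 and lower for none with OxLDL in either line (medians 0.17 and 0.09), where 6.38% of all genes rose in sh-Luc and 26.2% in sh-PHLPP1. With scaling by library size alone, OxLDL in sh-PHLPP1 gave 3 higher and 4 lower. Hk3, the myeloid hexokinase, rose in both (1.47 ± 0.15 and 1.34 ± 0.15). Slc2a1, the main glucose transporter, stood at 255, 222 and 202 CPM in untreated sh-PHLPP1 and at 787, 825 and 896 CPM with OxLDL (1.89 ± 0.23, adjusted p = 3.55e-05). All libraries with OxLDL were higher, and its interaction was 1.30 ± 0.32 (adjusted p = 0.0129). Between lines, 2 were higher and 4 lower untreated (median -0.10), and 2 and 2 after OxLDL (-0.13), while 1 was higher and 1 lower in the interaction (-0.05). In these comparisons 27.0%, 55.2% and 24.6% of all genes were called. The untreated count was 1 and 1 without replicate 2 or 3 of sh-PHLPP1, and that after OxLDL 3 and 4 without replicate 2 of untreated sh-Luc and 1 and 1 without replicate 2 or 3 of sh-Luc.

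Of 10 tested relatives of the alpha-arrestins and thioredoxin genes, 1 rose with OxLDL in sh-Luc and 2 in sh-PHLPP1 (medians 0.28 and 0.08). No other was called there, where 9.47% and 54.6% of all genes were (6.38% and 26.2% higher). Nedd4l, a ubiquitin ligase that alpha-arrestins recruit, rose in sh-Luc (0.57 ± 0.15, adjusted p = 0.0295) and in sh-PHLPP1 (2.17 ± 0.15, adjusted p = 3.11e-07). Txn1, the thioredoxin that TXNIP binds, was lower in sh-PHLPP1 untreated (-0.70 ± 0.15) and after OxLDL (-1.01 ± 0.15). Counts higher and lower were 2 and 2 between untreated lines, 3 and 3 after OxLDL, and 2 and 0 for the interaction (medians -0.12, 0.05 and -0.21). In these 3 comparisons 27.0%, 55.2% and 24.6% of all genes were called. Without 1 library, 0 to 4 were called in sh-Luc, 2 to 5 in sh-PHLPP1, 1 to 5 between untreated lines and 1 to 3 for the interaction. With scaling by library size alone, OxLDL in sh-PHLPP1 gave 1 higher and 5 lower.

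Across the 12 libraries, the genes whose log2 CPM followed Myc most closely included Tm9sf4 (Pearson r = 0.984) and Rnf121 (0.982). Replicate 2 of untreated sh-Luc was high for Tm9sf4 as for Myc, at 209 CPM against 102 and 109 CPM in the other 2. For Txnip they were Sdc3 (0.961), Polr3gl (0.960) and Alox5 (0.952), which encode a syndecan, an RNA polymerase III subunit and 5-lipoxygenase. Polr3gl lies on the same chromosome as Txnip, on the other strand, with 15988 bases between them (GENCODE M21, GRCm38). Alox5 was low in the same untreated sh-Luc library, at 8.21 CPM against 26.6 and 22.1 CPM. In untreated sh-PHLPP1, replicate 1 held 23.0 CPM of Alox5 against 96.1 and 98.7 CPM. These correlations over 10314 genes share libraries and their groups, and are given as a description.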

How the data were processed

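Bulk RNA of 12 libraries was analysed from the count table that the authors deposited (whole-number read counts per gene, not normalised). The submitters' processing notes name build GRCm38 and the tools HTSeq, Trimmomatic, FastQC and DESeq2. The aligner, the annotation release and the strand setting are not given in the sources used here, and the raw reads were lost per the series' design text. The authors also deposited tables of log2 fold changes with an adjusted p-value per gene for 3 comparisons, used only to set their calls beside those made here.

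Counts were tested in R 4.3.3 with edgeR 4.0.16 (filterByExpr, TMM, quasi-likelihood test, 2-sided, 4 group means over all 12 libraries, no replicate block), with Benjamini-Hochberg adjustment over 13121 genes of 39179. The biological coefficient of variation was 0.171. The standard error (SE) of a log2 fold change is its size over the square root of F, and is approximate. Levels per kb use the exon length of GENCODE M21. The steps were tested on simulated data. Alternatives were DESeq2 1.42.0, its size factors, library size alone, no filter, a replicate block, only the libraries compared, leaving out each library, and leaving out both untreated libraries that stood apart.

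Members and gene lists were chosen with earlier results of these data known. All members and Phlpp1 were named, and of each list up to 4 genes with the smallest p in a comparison. Promoter sequences are from RefSeq (GRCm38.p6). One gene that the rule for likeness to Myc would name is not reported here.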

Additional observations from a re-analysis of the deposited data

Results flagged for a closer look

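For 4 members the OxLDL response differed between the lines by the interaction test itself, given as the log2 response in sh-PHLPP1 less the response in sh-Luc (edgeR, adjusted over all genes). Myc differed by 4.04 (adjusted p = 0.00711), Mxd1 by 1.55 (adjusted p = 0.000862), Mlx by 0.72 (adjusted p = 0.00340) and Mnt by -0.86 (adjusted p = 0.0124). In each, the 3 sh-PHLPP1 libraries with OxLDL lay outside the range of the 3 untreated libraries of that line, as for 59.9% of all genes. With library size alone, the interaction of Mlx was 0.35 and not called. Of all genes tested, 24.6% had a called interaction.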

How the results depend on the processing

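Of 24 called results of single members, 14 kept their call and direction in all 18 or 19 alternatives, as did 4 of the 21 that were not called. Of 846 alternative values, 766 kept direction and side of the threshold, 39 lost the call, 23 gained it and 18 changed sign.

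For OxLDL in sh-Luc, 1242 genes and 2 members were called. DESeq2 gave 1948 genes, fitting only the libraries compared gave 2944 genes and 4 members, leaving out both untreated libraries that stood apart gave 3528 and 6, and library size alone gave 0 members. Leaving out 1 library gave 564 to 3086 genes and 0 to 3 members. Between untreated lines (3549 genes, 3 members), DESeq2 gave 5 members, only the libraries compared gave 733 genes and 0 members, and leaving out both gave 6267 and 6. Leaving out 1 library gave 1515 to 6372 genes and 0 to 6 members. The interaction (3231 genes) had 5319 without both and 2114 to 4496 without 1 library. The causes were not tested.

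Signs changed only for members that were not called. With library size alone, Mxi1 was -0.33 and called for OxLDL in sh-PHLPP1 and -0.10 between lines after OxLDL, where Txnip was -0.20. The same scaling gave Mnt 0.10 between untreated lines and Arrdc4 -0.035 in the interaction. Without a filter, Txnip was -0.0060 between lines after OxLDL. The interaction of Mxi1 was 0.019 with DESeq2, 0.020 with its size factors and 0.019 without both libraries. Without 1 library, the lowest and highest values were -0.40 and 0.020 for Txnip and -0.067 and 0.0048 for Mnt with OxLDL in sh-Luc, -0.18 and 0.090 for Mnt between untreated lines, and -0.083 and 0.89 for Arrdc4 and -0.091 and 0.054 for Mxi1 in the interaction.

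Same-numbered libraries did not consistently deviate together. Their deviations correlated at -0.28 to 0.28, over 0.1 in 5 of 18 pairs, and 4 of 12 libraries correlated best with their own number. Deviations were taken from means of 3 libraries, so this check cannot decide whether shared passages pair the libraries. With the replicate block, genes called were 1115 and 6984 for OxLDL in sh-Luc and sh-PHLPP1, 3282 and 7051 between lines untreated and after OxLDL, and 2965 for the interaction. Txnip with OxLDL in sh-PHLPP1 (-0.66) and Myc between untreated lines (-1.88) were then not called. The block changed no other member's call. Depth limits what can be said of Mlxipl. In each comparison, Myc and Arrdc4 had the largest SE among the tested members, and the cause of that was not tested.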
